A study of Mus musculus with 4 samples.

Results

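Calmodulin and the calmodulin-dependent protein kinases were followed in primary ear fibroblasts of C57BL/6 mice, grown in DMEM with serum. The set was chosen by gene symbol, and the rule uses no measured value. It holds the calmodulin genes Calm2 and Calm3, the kinase kinase gene Camkk2, the kinase genes Camk1 and Camk4, and the CaMKII genes Camk2a, Camk2b, Camk2d and Camk2g. All 9 were found among the 55536 Ensembl genes counted, by pairing IDs with mouse symbols. RNA came from 2 states of AF357425, which is a small nucleolar RNA of the C/D box class from the mouse Dlk1-Dio3 locus, and each state gave a library from a fibrillarin pulldown and a library of whole-cell RNA. The 4 groups were therefore AF357425-High pulldown, AF357425-Low pulldown, AF357425-High whole-cell and AF357425-Low whole-cell, with 1 library each and no replicate check. The sample characteristics name overexpression for AF357425-High and inhibition for AF357425-Low, whereas the treatment protocol names gapmers against AF357425 or a scrambled control, so which transfection stands behind each state is not settled by the labels. Both states had 48 h of KN93, an inhibitor of CaMKII given to synchronize the cell cycle, before 24 h of transfection. A library without KN93 was not analysed here, so the values below describe these genes under their own pathway's inhibitor and not its effect. The labels do not tell whether the cells of the 2 states came from the same mice.

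Calmodulin is a small calcium sensor. When calcium rises it wraps around short helices in its target proteins, and in mammals several separate genes encode the identical protein. CaMKII is a large multi-subunit kinase whose subunits come from 4 genes: the alpha and beta genes are best known from neurons, while delta and gamma are used by many tissues. CaMKK2 phosphorylates and activates CaMKI, CaMKIV and the energy-sensing kinase AMPK. CaMKIV acts in the nucleus, among others on the transcription factor CREB, and calcineurin, the calmodulin-dependent phosphatase, acts on the NFAT transcription factors.

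Reads assigned to genes numbered 25857770 in the AF357425-High pulldown, 27832061 in the AF357425-Low pulldown, 22082565 in whole-cell RNA of AF357425-High and 21693030 in that of AF357425-Low. Mitochondrial ribosomal RNA held 63.4% and 59.8% of these reads in the AF357425-High and AF357425-Low pulldowns, against 0.0926% and 0.0583% in whole-cell RNA. Fragments that fell on more than 1 gene and were not counted made up 9.38% and 8.54% of all fragments in the pulldowns, against 1.05% and 1.09% in whole-cell RNA. All 11 fibroblast markers on the list had reads in every library, but at unlike levels. Col1a1 had 26132 and 30196 reads in the AF357425-High and AF357425-Low pulldowns and 77328 and 84317 in whole-cell RNA. In the same order Lum had 47 and 63 reads and 13 and 12 reads. Some markers of other cell types had reads in every library too, such as Sox9 of chondrocytes with 3727 and 3219 in whole-cell RNA of AF357425-High and of AF357425-Low. Levels below are counts per 1e+06 reads assigned to genes (CPM). Exon lengths were not used, so a level is compared between libraries for 1 gene and not between genes.

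Calm2 (ENSMUSG00000036438; GRCm38.p6 chromosome 17, 87433401 to 87446935) had 4143 and 4713 reads in the AF357425-High and AF357425-Low pulldowns, against 6184 in whole-cell RNA of AF357425-High and 6175 in that of AF357425-Low. These counts are 160.2 and 169 CPM in the pulldowns and 280.0 and 285 CPM in whole-cell RNA. Both pulldowns were therefore lower than both whole-cell libraries, while the states lay close together within each kind. Calm3 (ENSMUSG00000019370; chromosome 7, 16915379 to 16924032) had 883 and 962 reads in the AF357425-High and AF357425-Low pulldowns, which is 34.1 and 34.6 CPM. In whole-cell RNA of AF357425-High and of AF357425-Low it had 7318 and 8143 reads, or 331 and 375 CPM. The gap between the kinds of library was wider for Calm3 than for Calm2, while the protein they encode is the same. The span of Calm3 overlaps by 2360 bases the long noncoding RNA gene Gm45972, which was not analysed here.

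After scaling by the trimmed mean of M values (TMM), Calm2 in whole-cell RNA had a log2 ratio of AF357425-High over AF357425-Low of -0.08 (95% interval -0.13 to -0.03), and Calm3 had -0.24 (-0.28 to -0.19). In the pulldown Calm2 had 0.23 (0.16 to 0.29) and Calm3 0.29 (0.15 to 0.42) by TMM, but -0.08 and -0.02 by library totals. Every interval given here covers counting error only, because it comes from the counts of single libraries, and without replicates no test between states was possible. Reads amplified by PCR and lacking molecular identifiers are not independent molecules, so the intervals can be too narrow even for that error. The line for a call, higher or lower, was an interval lying wholly beyond 2-fold. Neither calmodulin gene was called in either kind of library. Summed, Calm2 and Calm3 gave 194 and 204 CPM in the AF357425-High and AF357425-Low pulldowns and 611 and 660.0 CPM in whole-cell RNA.

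**Figure D1:**
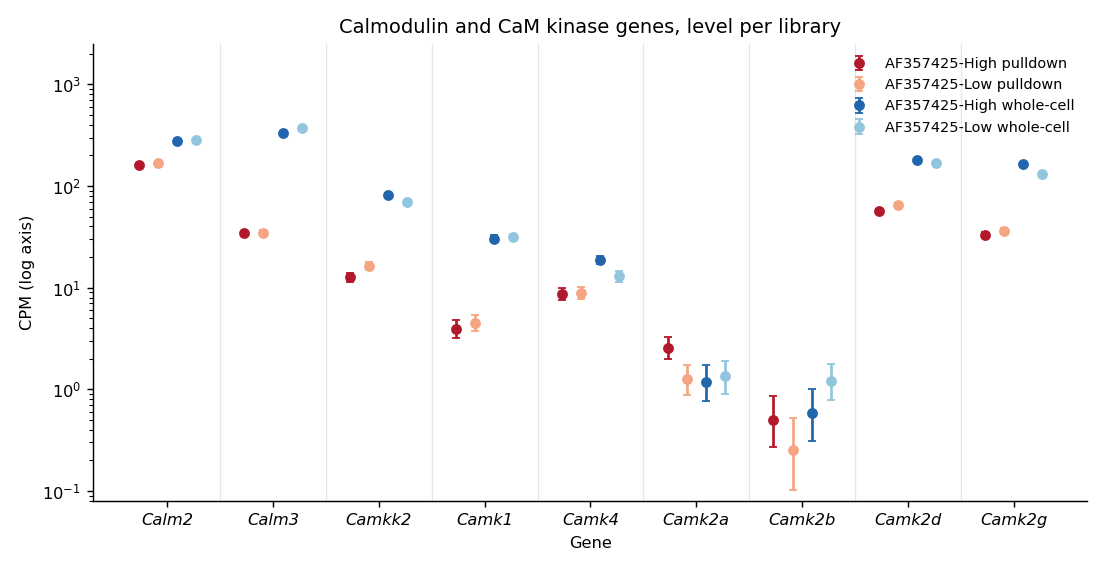
Level of each of the 9 genes in CPM on a log axis, with 1 point per library and exact Poisson 95% intervals for counting error. Calm3 sits near 34.1 CPM in the AF357425-High pulldown and at 331 CPM in AF357425-High whole-cell RNA, while Camk2a and Camk2b lie near 1 CPM or below in most libraries.

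Camkk2 (ENSMUSG00000029471; chromosome 5, 122718380 to 122779522), the kinase that switches on CaMKI, CaMKIV and AMPK, had 326 and 457 reads in the AF357425-High and AF357425-Low pulldowns, against 1815 and 1498 in whole-cell RNA of AF357425-High and of AF357425-Low. Its whole-cell ratio of AF357425-High over AF357425-Low was 0.19 (0.09 to 0.29), and its pulldown ratio was -0.08 (-0.29 to 0.13). By library totals these were 0.25 (0.15 to 0.35) in whole-cell RNA and -0.38 (-0.59 to -0.17) in the pulldown. The direction thus differed between the kinds of library under both scalings, while the pulldown interval includes 0 by TMM and excludes it by totals. The span of Camkk2 overlaps that of the ATP-gated channel gene P2rx4 by 11360 bases, where 527 and 446 reads went to P2rx4 in the AF357425-High and AF357425-Low pulldowns and 758 and 782 in whole-cell RNA, and how reads in the overlap were assigned was not tested.

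Camk1 (ENSMUSG00000030272; chromosome 6, 113334124 to 113343922), which encodes the cytoplasmic kinase CaMKI, had 102 and 125 reads in the AF357425-High and AF357425-Low pulldowns and 668 and 685 in whole-cell RNA of AF357425-High and of AF357425-Low. Both of its state ratios had intervals that include 0: 0.12 (-0.27 to 0.51) in the pulldown and -0.12 (-0.27 to 0.04) in whole-cell RNA. Its span overlaps the DNA repair gene Ogg1 by 754 bases.

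Camk4 (ENSMUSG00000038128; chromosome 18, 32934941 to 33195767), which encodes the nuclear kinase CaMKIV, had 224 and 247 reads in the AF357425-High and AF357425-Low pulldowns. In whole-cell RNA it had 413 reads for AF357425-High and 281 for AF357425-Low, or 18.7 and 12.95 CPM. Among the 8 genes whose mean reached 1 CPM in whole-cell RNA this was the highest ratio, at 0.47 (0.25 to 0.70), a 1.39-fold difference (1.19 to 1.62). Of all 13519 genes measured in whole-cell RNA, 94.6% had a lower ratio than Camk4. In the pulldown its ratio was 0.27 (0.00 to 0.54) by TMM and -0.03 by library totals. Its span overlaps the long noncoding RNA gene 2310026I22Rik by 588 bases. CaMKIV is also known from T cells, whose 5 listed markers summed to 0 CPM and 0.323 CPM in the AF357425-High and AF357425-Low pulldowns and to 0 CPM and 0.0461 CPM in whole-cell RNA. Cd3e and Cd3d were at 0 in every library.

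Among the CaMKII genes, Camk2d and Camk2g held nearly all reads. Camk2d (ENSMUSG00000053819; chromosome 3, 126595487 to 126846326), the delta subunit, had 1473 and 1817 reads in the AF357425-High and AF357425-Low pulldowns, against 3947 and 3681 in whole-cell RNA of AF357425-High and of AF357425-Low. Camk2d hardly differed between the states in whole-cell RNA, with a ratio of 0.02 (-0.05 to 0.08), and had 0.11 (0.01 to 0.21) in the pulldown by TMM but -0.20 by library totals. Its span overlaps the long noncoding RNA gene Gm15551 by 1615 bases. Camk2g (ENSMUSG00000021820; chromosome 14, 20734873 to 20794157), the gamma subunit, had 845 and 1004 reads in the AF357425-High and AF357425-Low pulldowns, against 3607 and 2862 in whole-cell RNA of AF357425-High and of AF357425-Low. Its whole-cell ratio was 0.25 (0.18 to 0.32), a 1.19-fold difference (1.13 to 1.25), and its pulldown ratio was 0.16 (0.03 to 0.30) by TMM but -0.14 by library totals. Camk2g was thus somewhat more abundant in AF357425-High whole-cell RNA, whereas Camk2d was not separated from equal levels there.

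Camk2a and Camk2b, the subunit genes best known from neurons, had few reads in every library. Camk2a (ENSMUSG00000024617; chromosome 18, 60925307 to 60988152) had 66 and 35 reads in the AF357425-High and AF357425-Low pulldowns, or 2.55 and 1.26 CPM, and 26 and 29 reads in whole-cell RNA of AF357425-High and of AF357425-Low, or 1.18 and 1.34 CPM. The AF357425-High pulldown stood above the other libraries, whose Poisson intervals overlapped each other. Its pulldown ratio of AF357425-High over AF357425-Low was 1.33 (0.71 to 1.961), or 2.51-fold (1.64 to 3.89), and 95.9% of the 10736 genes measured in the pulldown had a lower ratio. The interval reaches below 2-fold, so Camk2a was not called, and in whole-cell RNA its ratio was -0.24 (-1.06 to 0.57). Camk2b (ENSMUSG00000057897; chromosome 11, 5969629 to 6066357) had 13 and 7 reads in the AF357425-High and AF357425-Low pulldowns and 13 and 26 in whole-cell RNA of AF357425-High and of AF357425-Low. The span of Camk2a overlaps the microRNA genes Mir7220 and Mir6982, which had 0 reads in every library, and by 1206 bases the long noncoding RNA gene Gm46632, which was not analysed here. The mean of Camk2b was below 1 CPM in both kinds of library, so it was the gene of the set left out of the counts that follow.

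Markers of neurons and of skeletal muscle were read beside Camk2a and Camk2b. Of the 10 neuronal markers, Rbfox3, Snap25 and Gad1 had no read in any library. The list summed to 10.4 and 20.2 CPM in the AF357425-High and AF357425-Low pulldowns and to 87.9 and 109 CPM in whole-cell RNA, and Tubb3, a tubulin gene that is not confined to neurons, gave most of the whole-cell reads with 1638 for AF357425-High and 2003 for AF357425-Low. The number of neuronal markers at 0 was 5 and 4 in the pulldowns and 3 and 4 in whole-cell RNA. In the pulldowns Map2 gave most of the sum, with 200 reads for AF357425-High and 448 for AF357425-Low. Tubb3 and Syn1 also had fewer reads in the AF357425-High pulldown, while Nefl (7 and 1 reads) and Stmn2 (15 and 12) went the other way. The lower neuronal sum in the AF357425-High pulldown thus rests mainly on Map2, and its relation to Camk2a was not tested. Of the 10 muscle markers, Ckm, Myod1 and Myog had no read in any library, 6 and 6 were at 0 in the pulldowns and 4 and 4 in whole-cell RNA, and the sums were 5.45 and 6.65 CPM in the pulldowns and 7.88 and 6.32 CPM in whole-cell RNA. In bulk RNA, fewer cells of a type and less RNA per cell cannot be told apart.

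Across the set, none of the 8 measured genes was called in whole-cell RNA, where 0.251% of 13519 genes were. Of the 8, 4 had positive and 4 negative ratios, with a median of -0.03, beside a median of 0.00 over all genes measured. Intervals excluded 0 on the higher side for Camkk2, Camk4 and Camk2g, where 19.0% of all genes did so, and on the lower side for Calm2 and Calm3, where 19.6% did, which together are 5 of 8 beside 38.6% of all genes. At a 1.5-fold line none of the 8 was called either, beside 1.01% of all genes. With library totals the interval of Calm2 included 0 and that of Camk2d did not, so 4 genes were on the higher side and 1 on the lower. The median of all genes was 0.06 on that scale, and the shares of all genes whose intervals excluded 0 are not given here. Chondrocyte markers differed between the whole-cell libraries as well. All 4 measured ones were positive and 2 were called higher, the 7 summed to 263 CPM in AF357425-High and 185 CPM in AF357425-Low, and 1 and 2 of them were at 0. In the pulldowns of AF357425-High and AF357425-Low the chondrocyte markers summed to 114 and 141 CPM, with 2 of 4 measured ratios positive. Fibroblast markers summed to 41486 CPM in AF357425-High and 51907 CPM in AF357425-Low whole-cell RNA, of which Fn1 alone gave 31428 and 40328 CPM. Of 10 measured there, 8 had negative ratios and 2, Pdgfra and Thy1, positive ones. The part of these marker differences in the ratios of the calmodulin and kinase genes was not tested.

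In the pulldown none of the 8 measured genes was called either, where 6.35% of 10736 genes were. By TMM 7 ratios were positive and 1 negative, with a median of 0.19 beside 0.00 over all genes, whereas by library totals 1 was positive and 7 were negative, with a median of -0.11 beside -0.31 over all genes. By TMM the interval excluded 0 on the higher side for 6 of the 8, beside 32.4% of all genes, and on the lower side for 0, beside 31.9%, and 64.3% of all genes excluded 0 in either direction. By library totals it did so on the higher side for Camk2a alone and on the lower side for Calm2, Camkk2, Camk2d and Camk2g. The shares of all genes doing so by library totals are not given here. With the median of all genes at -0.31 on that scale, these sides are not a result about the set. At a 1.5-fold line Camk2a was called higher, beside 7.94% of all genes called higher and 15.6% called in either direction.

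**Figure D2:**
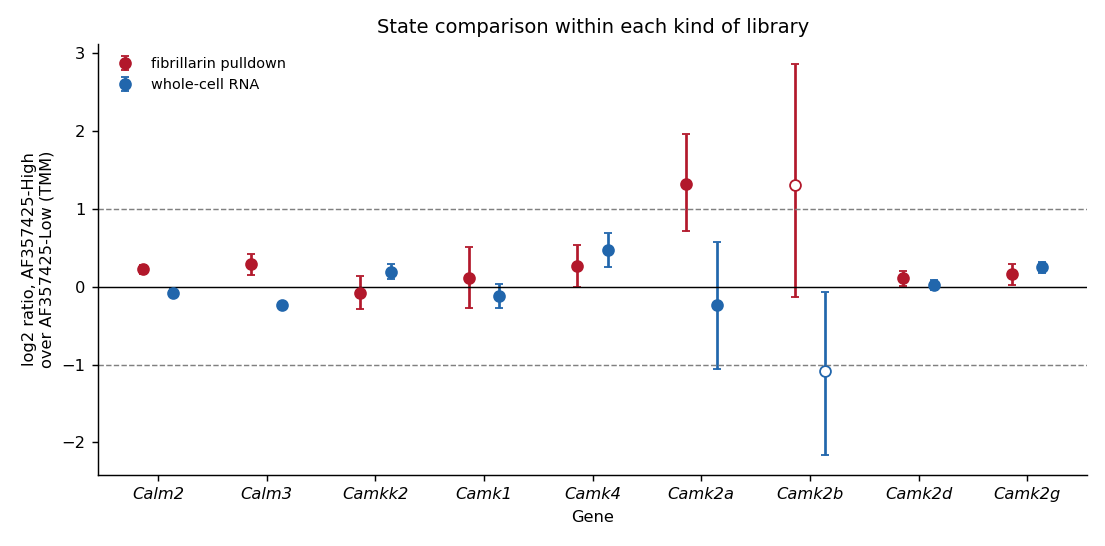
Log2 ratio of AF357425-High over AF357425-Low for each gene after TMM scaling, in the pulldown and in whole-cell RNA, with exact 95% counting intervals; open points are Camk2b, whose mean is below 1 CPM, and dashed lines mark 2-fold. Camk2a in the pulldown, at 1.33, has an interval that excludes 0 but crosses the 2-fold line, and Camk4 at 0.47 is the highest measured whole-cell point.

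Ratios between genes of a family within a library do not depend on how libraries are scaled. Calm2 made up 82.4% of the summed Calm2 and Calm3 reads in the AF357425-High pulldown (exact binomial 95% interval 81.4% to 83.5%) and 83.0% in the AF357425-Low pulldown (82.0% to 84.0%). In whole-cell RNA it made up 45.8% in AF357425-High (44.96% to 46.6%) and 43.1% in AF357425-Low (42.3% to 43.9%). The pulldown thus held mostly Calm2 reads in both states, whereas whole-cell RNA held somewhat more Calm3 than Calm2 reads. The Calm2 to Calm3 read ratio was 5.55-fold higher in the pulldown than in whole-cell RNA of AF357425-High, a log2 difference of 2.47 (2.36 to 2.59), and 6.46-fold higher in AF357425-Low, a difference of 2.69 (2.58 to 2.80). Between the states the ratio changed little: by 0.16 (0.09 to 0.22) in whole-cell RNA and by -0.06 (-0.21 to 0.08) in the pulldown.

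CaMKII reads were split less evenly in the pulldown than in whole-cell RNA. Camk2d held 61.5% of CaMKII reads in the AF357425-High pulldown (59.5% to 63.4%) and 63.5% in the AF357425-Low pulldown (61.7% to 65.2%), against 52.0% in AF357425-High whole-cell RNA (50.9% to 53.1%) and 55.8% in AF357425-Low whole-cell RNA (54.6% to 57.0%). Camk2g held 35.3% of them in the AF357425-High pulldown, 35.1% in the AF357425-Low pulldown and 47.5% and 43.4% in whole-cell RNA of AF357425-High and of AF357425-Low. The whole-cell Camk2g to Camk2d ratio was 1.18-fold higher in AF357425-High than in AF357425-Low, a log2 difference of 0.23 (0.14 to 0.33), and in the pulldown the difference was 0.05 (-0.11 to 0.22). Camk2a held 2.75% of CaMKII reads in the AF357425-High pulldown (2.14% to 3.49%) and 1.22% in the AF357425-Low pulldown (0.853% to 1.70%), against 0.342% and 0.440% in whole-cell RNA of AF357425-High and of AF357425-Low. Camk2b held at most 0.542% in any library. These are shares of reads, not of transcripts, because the genes differ in length.

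**Figure D3:**
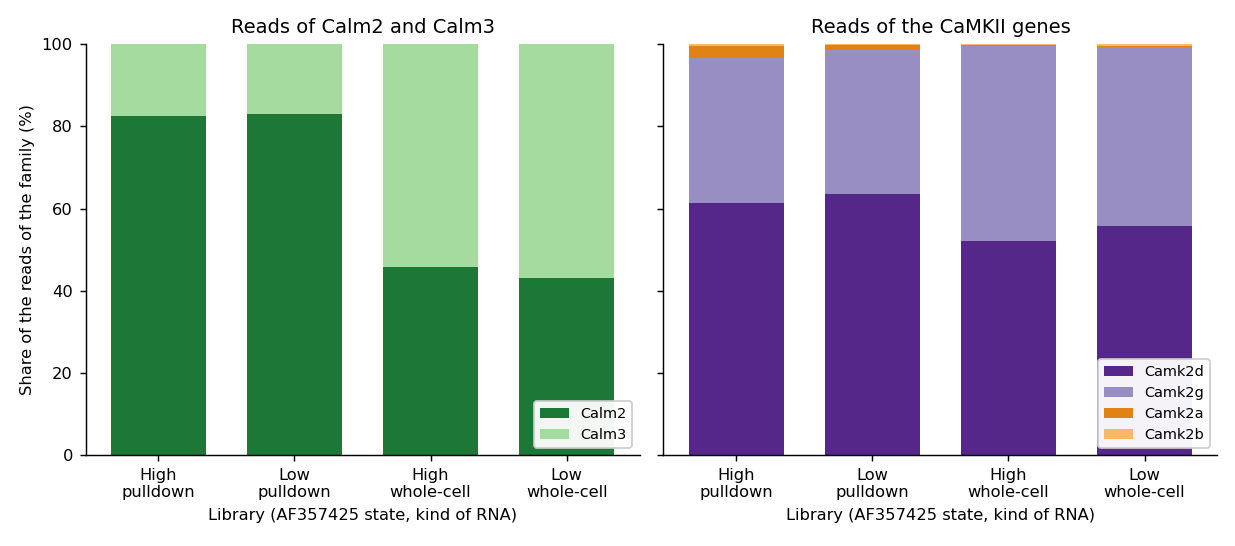
Share of the reads of a family held by each gene in each library, in percent, for Calm2 with Calm3 (left) and for the 4 CaMKII genes (right). Calm2 holds 82.4% of the AF357425-High pulldown, 83.0% of the AF357425-Low pulldown and 45.8% and 43.1% in whole-cell RNA, and Camk2d is the largest CaMKII share in all 4 libraries.

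Within each state, pulldown and whole-cell levels were set against each other by library totals, which compares the share of assigned reads that each gene held. Mitochondrial ribosomal RNA held 63.4% and 59.8% of the AF357425-High and AF357425-Low pulldown reads, which lowers the share of every other gene there. A negative ratio is therefore a lower share of reads and not by itself a loss of that messenger RNA from the pulldown. No control pulldown was analysed here, so recovery with fibrillarin cannot be told apart from background in this ratio. Protein-coding genes as a whole had a median log2 ratio of -2.14 in AF357425-High and -1.72 in AF357425-Low, over 10955 genes. Calm3, Camkk2, Camk1, Camk2d and Camk2g were called lower in the pulldown in both states, which is 5 of 8 measured genes, beside 60.6% of all 12382 genes and 61.1% of protein-coding ones. None was called higher, beside 1.42% of all genes and 0.831% of protein-coding ones. The share called lower in the set is close to that of all genes, and the position of each gene among coding genes is given next.

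Calm2 had -0.81 (-0.86 to -0.75) in AF357425-High and -0.75 (-0.80 to -0.69) in AF357425-Low, above the ratio of 85.1% and 76.1% of coding genes. Calm3 stood at the other side with -3.28 (-3.38 to -3.18) and -3.44 (-3.54 to -3.34) in the same states, above 21.6% and 13.1% of coding genes. Camk4 was in the upper part of coding genes too, with -1.11 (-1.35 to -0.87) in AF357425-High and -0.55 (-0.80 to -0.29) in AF357425-Low, above 78.7% and 80.8% of them. Camk2a lay highest of the measured genes of the set, with 1.12 (0.44 to 1.83) in AF357425-High and -0.09 (-0.84 to 0.67) in AF357425-Low, above 98.6% and 89.5% of coding genes.

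Camk2d, with -1.65 (-1.74 to -1.56) in AF357425-High and -1.38 (-1.46 to -1.30) in AF357425-Low, was somewhat above the coding median, and Camk2g, with -2.32 (-2.43 to -2.21) and -1.87 (-1.98 to -1.77), close to it. Camkk2 had -2.70 (-2.88 to -2.53) in AF357425-High and -2.07 (-2.23 to -1.92) in AF357425-Low, and Camk1 had -2.94 (-3.25 to -2.64) and -2.81 (-3.10 to -2.54), both below the coding median in each state. The order of the genes did not depend on scaling, but the sign did: Calm2 and Camk4 were positive in both states once the mitochondrial ribosomal RNAs were left out of the totals (0.64 and 0.56 for Calm2, 0.34 and 0.77 for Camk4).

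The genomic span of a gene moved with this ratio. Coding genes spanning under 15 kb had a median of -2.64 in AF357425-High and -2.35 in AF357425-Low, and those over 100 kb had -1.76 and -1.28. As a description over 10885 and 10917 coding genes, which share the libraries and their depth, the Spearman correlation of span with the ratio was 0.251 in AF357425-High and 0.278 in AF357425-Low. Calm3 and Camk1 span 8654 and 9799 bases and lay low, while Camk4 and Camk2d span 260827 and 250840 bases and lay above the coding median. Camk2a, Camkk2 and Camk2g have similar spans of 62846, 61143 and 59285 bases but unlike ratios. These were 1.12, -2.70 and -2.32 in AF357425-High and -0.09, -2.07 and -1.87 in AF357425-Low. Calm2, with a span of 13535 bases, lay far above the median of genes under 15 kb. The part of span in the ratios of the set was not tested.

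**Figure D4:**
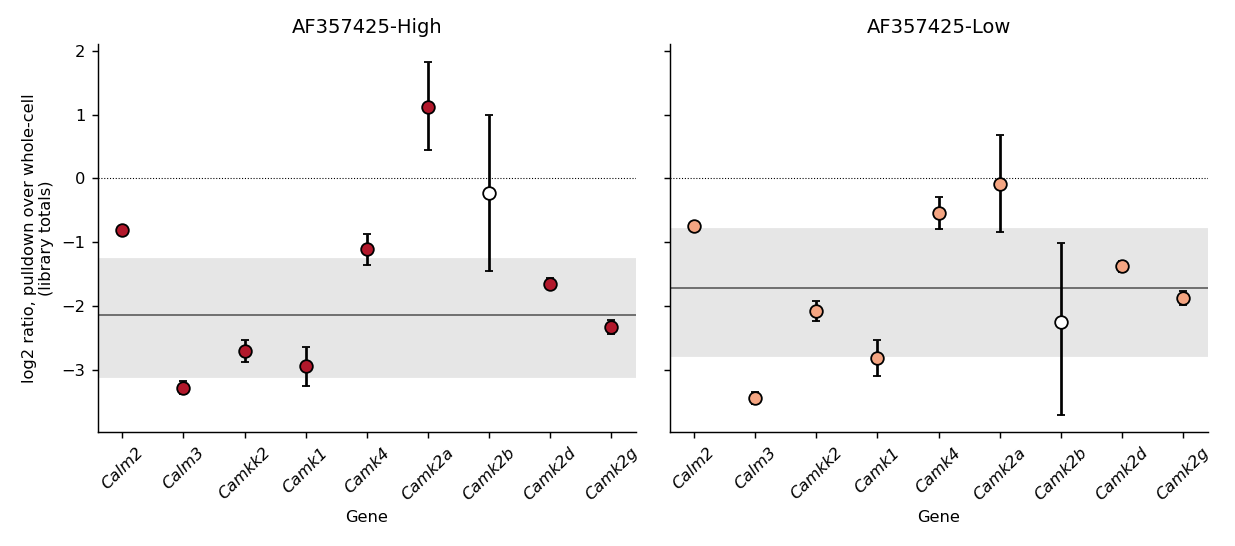
Log2 ratio of pulldown over whole-cell RNA by library totals for each gene, in AF357425-High (left) and AF357425-Low (right), with exact 95% counting intervals; the grey line and band are the median and quartiles of protein-coding genes, and the open point is Camk2b. Calm2 at -0.81 and -0.75 lies above the band and Calm3 at -3.28 and -3.44 below it in the same states.

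To compare the states in the pulldown to whole-cell ratio of a gene, its whole-cell state ratio was subtracted from its pulldown state ratio. By TMM, Calm3 had 0.52 (0.38 to 0.66), Calm2 0.31 (0.23 to 0.38), Camkk2 -0.27 (-0.50 to -0.04) and Camk2a 1.57 (0.60 to 2.53), and the intervals of Camk1, Camk4, Camk2d and Camk2g included 0. By library totals, which move the median of all genes to -0.36, Calm2 had -0.06 (-0.14 to 0.02), Calm3 0.16 (0.02 to 0.30), Camkk2 -0.63 (-0.86 to -0.40) and Camk2a 1.20 (0.24 to 2.17). On that scale the intervals of Camk4 at -0.56 (-0.91 to -0.22), Camk2g at -0.45 (-0.60 to -0.30) and Camk2d at -0.27 (-0.39 to -0.15) excluded 0 as well. Calm3 and Camk2a on the higher side and Camkk2 on the lower thus had intervals that excluded 0 under both scalings. The scalings differ by a shift common to all genes, and the share of all genes with such intervals is not given here. No gene of the set lay beyond 2-fold with its whole interval under either, where by TMM 2.65% of 11356 genes did so on the higher and 1.64% on the lower side. By library totals these shares of all genes were 1.19% and 5.09%. The value of Camk2a exceeded that of 97.2% of genes, and it rests on 26 reads in whole-cell RNA of AF357425-High and 29 in that of AF357425-Low.

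Other genes of calcium and calmodulin signalling were read from 7 lists with 126 entries. Of 88 measured in whole-cell RNA none was called, beside 0.251% of all genes, and 38 were positive, with a median of -0.03. Of 82 measured in the pulldown 1 was called higher and 2 lower, beside 3.47% and 2.88% of all genes, and 36 were positive, with a median of -0.10. By library totals 0 of the 82 were called higher and 4 lower, beside 2.22% and 5.66% of all genes, and 14 were positive, with a median of -0.41. Among the remaining calmodulin and CaM kinase genes none was called. Camk1d, a CaMKI isoform gene, had -0.37 (-0.65 to -0.09) in the pulldown and -0.40 (-0.56 to -0.24) in whole-cell RNA. Of the genes for the small CaMKII inhibitor proteins in whole-cell RNA, Camk2n2 had 148 reads for AF357425-High and 208 for AF357425-Low, a ratio of -0.57 (-0.89 to -0.26), and Camk2n1 had 0.08 (-0.21 to 0.37). In the pulldown Camk2n1 had -0.98 (-1.69 to -0.30) by TMM on 26 reads for AF357425-High and 68 for AF357425-Low. This pulldown value was added after it was seen, because its reads fall short of the rule for naming genes. Ppm1f, a phosphatase that acts on CaM kinases, had 0.21 (-0.04 to 0.45) in the pulldown. Calm4, Calm5, Camkv, Pcp4 and Ppm1e had no read in any library.

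The AMPK subunits, which lie below CaMKK2, had no called gene in either kind of library. Their medians were -0.34 over 5 genes in the pulldown, with 1 positive, and 0.12 over 6 genes in whole-cell RNA, with 4 positive. The beta subunit gene Prkab2 had 124 reads for AF357425-High and 285 for AF357425-Low in the pulldown, a ratio of -0.79 (-1.11 to -0.48), but 425 in AF357425-High and 247 in AF357425-Low whole-cell RNA, a ratio of 0.70 (0.47 to 0.93). The gamma subunit gene Prkag1 had -1.04 (-1.69 to -0.44) and Prkag2 -0.34 (-0.74 to 0.05) in the pulldown. In whole-cell RNA the alpha subunit gene Prkaa2 had -0.64 (-1.17 to -0.12) on 53 and 78 reads in AF357425-High and AF357425-Low, and Prkab1 had 0.21 (0.07 to 0.35).

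Further calmodulin-dependent kinases had medians of -0.16 over 10 genes in the pulldown and 0.04 over 12 in whole-cell RNA, with no call by TMM. In the pulldown the phosphorylase kinase subunit gene Phka2 had -1.15 (-1.58 to -0.74) by TMM, but was called lower by library totals at -1.46 (-1.89 to -1.04). By TMM the myosin light chain kinase gene Mylk had 0.66 (0.41 to 0.91) and Dclk2 had 0.53 (-0.01 to 1.07). In whole-cell RNA Dclk2, a doublecortin-like kinase gene, had 0.26 (0.03 to 0.49), Dclk1 -0.25 (-0.32 to -0.18) and Phka2 -0.24 (-0.43 to -0.05). The calcineurin and NFAT genes had medians of -0.16 over 12 genes in the pulldown and -0.07 over 13 in whole-cell RNA, with no call by TMM. By library totals Nfatc2, an NFAT gene named after its values were seen, was called lower in the pulldown at -1.96 (-2.85 to -1.16). By TMM the calcineurin inhibitor gene Rcan1 had 0.70 (0.43 to 0.97) in the pulldown, where the catalytic subunit gene Ppp3ca had -0.42 (-0.53 to -0.31) and Nfat5 -0.43 (-0.50 to -0.37). In whole-cell RNA Rcan2 had -0.995 (-1.44 to -0.56) on 68 reads for AF357425-High and 128 for AF357425-Low, Nfat5 -0.32 (-0.36 to -0.28) and the calcineurin-binding gene Cabin1 -0.27 (-0.37 to -0.18).

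Of the transcription regulators that CaM kinases act on, Crem, a relative of CREB, was called higher in the AF357425-High pulldown by TMM but not by library totals, where its ratio was 1.25 (0.81 to 1.71). It had 137 reads there and 62 in the AF357425-Low pulldown, a TMM ratio of 1.55 (1.11 to 2.01), beside 413 reads for AF357425-High and 398 for AF357425-Low in whole-cell RNA. The list had medians of 0.05 over 15 genes in the pulldown and -0.04 over 15 in whole-cell RNA. In the pulldown Atf1, also of the CREB family, had 0.46 (0.35 to 0.57), Srf 0.58 (0.27 to 0.88) and the histone deacetylase gene Hdac9 -0.68 (-1.22 to -0.16). In whole-cell RNA Srf had 0.26 (0.14 to 0.37), while the intervals of Hdac9 and Mef2c included 0.

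Among calcium channels, pumps and sensors, the cation channel gene Trpc1 was called lower in the pulldown, with 31 reads for AF357425-High and 174 for AF357425-Low, a ratio of -2.08 (-2.68 to -1.52). Its whole-cell reads were 127 for AF357425-High and 146 for AF357425-Low. The calcium release channel gene Itpr1 had 0.995 (0.84 to 1.15) in the pulldown, the channel gene Cacna1g -0.72 (-1.08 to -0.36) and the calcium pump gene Atp2b4 -0.64 (-0.84 to -0.44). In whole-cell RNA Itpr3 had -0.36 (-0.41 to -0.31), Itpr2 -0.63 (-1.06 to -0.21) and Cacna1h 0.81 (0.29 to 1.34). The list had medians of -0.13 over 18 genes in the pulldown and -0.07 over 19 in whole-cell RNA.

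In the list of other calmodulin-binding enzymes and scaffolds, the anchoring protein gene Akap5 was called lower in the pulldown, with 20 reads for AF357425-High and 100 for AF357425-Low, a ratio of -1.91 (-2.68 to -1.21). There Adcy3, an adenylyl cyclase gene, had -0.95 (-1.27 to -0.65), the scaffold gene Iqgap3 -0.76 (-1.09 to -0.44) and Marcksl1 0.76 (0.25 to 1.27). Iqgap3 was also low in AF357425-High whole-cell RNA, at -0.66 (-0.85 to -0.47), with the calmodulin-dependent phosphodiesterase gene Pde1a at -0.37 (-0.52 to -0.21) and the myosin gene Myo5a at -0.27 (-0.33 to -0.22). The medians were -0.14 over 18 genes in the pulldown and 0.00 over 18 in whole-cell RNA. With library totals the pulldown medians of all 7 lists were lower, between -0.65 for AMPK and -0.25 for the transcription regulators, beside -0.31 over all genes.

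**Figure D5:**
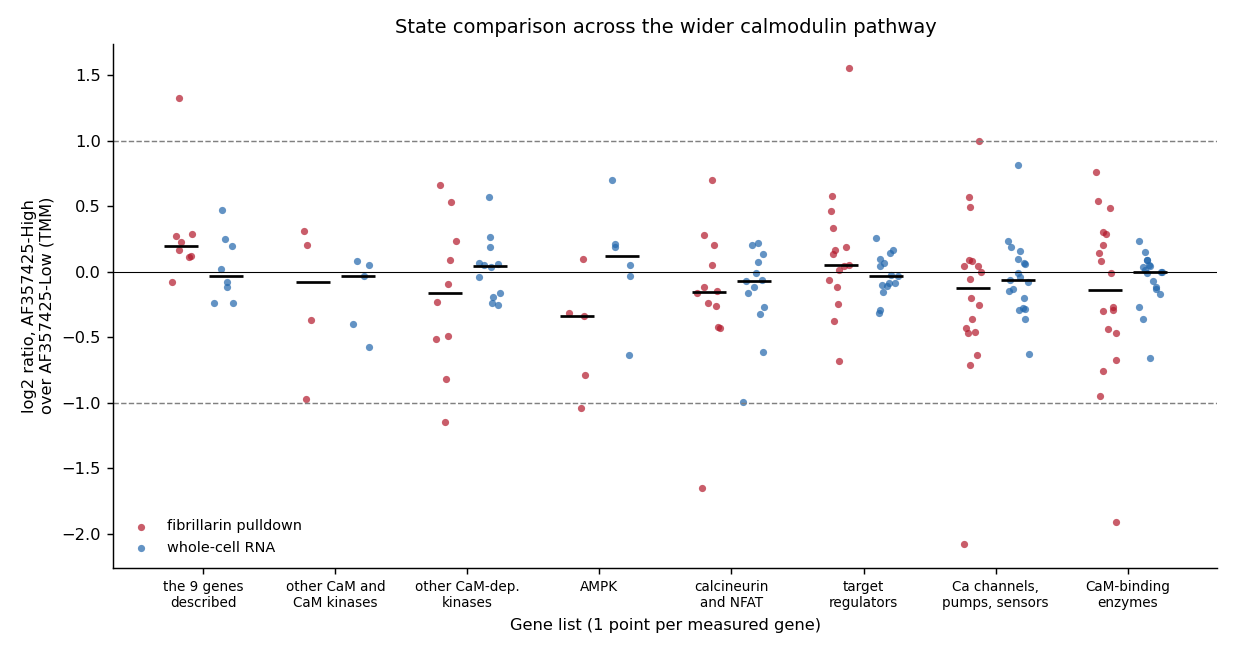
Log2 ratio of AF357425-High over AF357425-Low after TMM scaling for each measured gene of the set and of the 7 wider lists, with the pulldown left of whole-cell RNA, black bars at the medians and dashed lines at 2-fold. Pulldown points spread more widely than whole-cell points, and the ones called by TMM are Crem at 1.55, Trpc1 at -2.08 and Akap5 at -1.91.

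The genes whose pattern over the 4 libraries lay nearest to those of Calm2 and Camk2d, which hold the most reads among the calmodulin genes and the kinase genes of the set, were sought among the 6838 genes that had 100 reads or more in every library. The measure was the Euclidean distance of log2 CPM after centring each gene. Nearest to Calm2 were Cpne3 (0.038), Dnajc18 (0.040) and 1810030O07Rik (0.044), and nearest to Camk2d were Kifap3 (0.0054), Stip1 (0.035) and Washc5 (0.035). With 4 libraries this likeness is a description only.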

How the data were processed

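Whole-cell RNA and RNA from a fibrillarin pulldown were sequenced from fibroblasts in 2 states, with 1 library per group. The authors deposited raw counts of fragments per Ensembl gene in 2 tables. The submitters' processing notes name cutadapt 2.4, STAR 2.6.0c, HTSeq 0.9.1, StringTie 1.3.4 and the genome build GRCm38. Which annotation and strand setting the counting used is not given in the sources here. Without strand the reads of overlapping genes cannot be told apart. HTSeq summary lines were left out of library totals. Symbols matched 55450 IDs, and positions, spans and overlaps came from RefSeq (GRCm38.p6).

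A gene counted as measured where its mean over the pair of libraries reached 1 CPM. The states were compared within each table after TMM scaling (edgeR 4.0.16, R 4.3.3), and pulldown with whole-cell RNA by library totals. How many genes differ between pulldown and whole-cell RNA depends on that choice. By library totals 60.6% of 12382 genes were called lower and 1.42% higher in the pulldown. With TMM over all 4 libraries these shares were 14.1% and 12.0%. Ratios have exact Clopper-Pearson 95% intervals from the counts; differences of ratios have normal ones. A gene was called where the whole interval lay beyond 2-fold, in both states for the pulldown against whole-cell RNA. A count of 0 allows 3 reads, which is 0.116, 0.108, 0.136 and 0.138 CPM in the AF357425-High and AF357425-Low pulldowns and the whole-cell libraries of AF357425-High and of AF357425-Low. On simulated Poisson tables with library totals, 97.0% and 98.0% of 4-fold changes were recovered in the pulldown and whole-cell state comparisons. At 2.5-fold, 57.0% and 74.0% were recovered. Alternatives were library totals, median-of-ratios scaling (DESeq2 1.42.0), totals without the 20 most abundant genes or the mitochondrial ribosomal RNAs, no filter or 5 CPM, and a 1.5-fold line.

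The genes, lists and rules were chosen with earlier results of these data known. From each list and state comparison the text names every called gene and up to 3 more with the largest ratios among genes of at least 100 reads in the pair. Differences between the pulldown and whole-cell state ratios were computed where every library had 10 reads or more. Marker lists of keratinocytes, endothelial cells, macrophages and melanocytes with Schwann cells summed to at most 3.85, 8.07, 8.11 and 2.54 CPM in any library. A gene that this rule names is not reported here.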

Additional observations from a re-analysis of the deposited data

Results flagged for a closer look

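After TMM scaling, for 4 genes the states differed in opposite directions in the pulldown and in whole-cell RNA, with both counting intervals excluding 0. With 1 library per group the difference between the kinds of library was not tested. Calm2 had log2 ratios of AF357425-High over AF357425-Low of 0.23 in the pulldown and -0.081 in whole-cell RNA, and Calm3 had 0.29 and -0.24. By library totals the pulldown ratios of Calm2 and Calm3 were -0.08 and -0.02, so the opposite direction of Calm2 and Calm3 holds after TMM scaling and not by totals. The AMPK beta subunit gene Prkab2 had -0.79 in the pulldown and 0.70 in whole-cell RNA, and the myosin gene Myo5a had 0.14 and -0.27. By library totals the pulldown ratio of Myo5a was -0.17, the same direction as in whole-cell RNA, whereas Prkab2 kept opposite signs with -1.09 in the pulldown and 0.76 in whole-cell RNA.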

How the results depend on the processing

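No paired analysis was possible because each group has 1 library, and for the same reason no replicate could be left out. In the state comparisons no gene of the set was called under library totals, median-of-ratios scaling, totals without the 20 most abundant genes, no filter or 5 CPM. At a 1.5-fold line 1 was called higher in the pulldown (Camk2a) and 0 in whole-cell RNA. Calls over all genes, 16 higher and 18 lower in whole-cell RNA, became 35 and 29 with no filter, 7 and 8 at 5 CPM and 61 and 76 at 1.5-fold. In the pulldown, 373 higher and 309 lower became 238 and 608 with library totals, 932 and 756 with no filter, 188 and 114 at 5 CPM and 852 and 820 at 1.5-fold. In the pulldown against whole-cell RNA, the 5 genes of the set called lower became 1 with TMM over all 4 libraries, 2 without the 20 most abundant genes and 2 without mitochondrial ribosomal RNA. Over all genes, 176 higher and 7502 lower became 1481 and 1749, 879 and 2617, and 750 and 2921 under these scalings. The higher count was 320 with no filter and 98 at 5 CPM. Camk2d turned positive there with TMM, at 0.38 in AF357425-High and 0.28 in AF357425-Low. So did Calm2, at 1.23 and 0.91, and Camk4, at 0.92 and 1.11, in the same states. Camk2a, already positive in AF357425-High, did so in AF357425-Low at 1.57. These scalings move every gene by the same amount within a pair of libraries, so they leave the shares of reads within a family as they are. Library totals for the difference between the pulldown and whole-cell state ratios, and for the calls in the wider lists, were chosen after seeing the data. Depth limits Camk2a and Camk2b most, with 7 to 66 reads per library.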
